A study of Mus musculus with 5 samples.

Results

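The 6 genes described here encode enzymes of the pentose phosphate pathway and of the reactions beside it that make NADPH in the cytosol: G6pdx, Pgd, Tkt, Taldo1, Me1 and Idh1. They were chosen by gene symbol, and each symbol named 1 row of the 40879 in every count file. Expression was measured by 3′-end sequencing in BV-2 cells, a mouse microglial line immortalised with oncogenes carried by a retrovirus. There was 1 library for each of 5 groups, namely an untreated control, urban particulate matter (UPM) at 50 µg/mL for 23 h, and 3 libraries given trazodone (TZ, an antidepressant) 1 h before the same particles, at 1.25, 2.5 or 5 µg/mL. These are called control, UPM, TZ 1.25, TZ 2.5 and TZ 5 below. No library had TZ without particles, and the labels name no vehicle for the control. With 1 library per group, a comparison of 2 groups compares 2 libraries.

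In the oxidative branch of the pathway, the enzymes encoded by G6pdx, at the first step, and Pgd (6-phosphogluconate dehydrogenase) each reduce NADP to NADPH while glucose 6-phosphate is turned into a pentose phosphate. Transketolase (Tkt) and transaldolase (Taldo1) form the non-oxidative branch. They make no NADPH themselves, but exchange carbon units between pentose phosphates and the sugars of glycolysis. Malic enzyme (Me1) and isocitrate dehydrogenase (Idh1) lie outside the pathway and make NADPH from malate and isocitrate in the cytosol. In microglia NADPH feeds the phagocyte oxidase, which makes superoxide, and also glutathione and thioredoxin reductases, which serve the removal of peroxides without carrying it out themselves. Genes of these enzymes are widely described as targets of NRF2, a transcription factor that binds antioxidant response elements.

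Because that element is the textbook link between the genes, its core, TGACNNNGC, was searched on both strands of the RefSeq promoter windows of the 6 genes (250 bases before to 50 after each start site, build GRCm38.p6). All 6 genes had a window and 3 of them, G6pdx, Me1 and Pgd, held an exact match, against 12.4% of all 32851 windows and 14.0% of the genes with a window. The windows of G6pdx and Me1 are shown because their match lies nearest upstream of or across the main start site, and that of Tkt because its levels followed another order than those of the other genes. Capitals mark the match. The G6pdx window is chrX:74428831-74429130 on the minus strand, the Me1 window chr9:86695865-86696164 on the minus strand, and the Tkt window chr14:30548881-30549180 on the plus strand.
G6pdx: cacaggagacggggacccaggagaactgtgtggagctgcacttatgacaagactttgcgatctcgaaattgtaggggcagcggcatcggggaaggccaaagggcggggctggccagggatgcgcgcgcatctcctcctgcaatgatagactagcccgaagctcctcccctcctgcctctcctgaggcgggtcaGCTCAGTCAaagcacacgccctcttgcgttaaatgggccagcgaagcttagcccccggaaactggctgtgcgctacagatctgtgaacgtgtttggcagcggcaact
Me1: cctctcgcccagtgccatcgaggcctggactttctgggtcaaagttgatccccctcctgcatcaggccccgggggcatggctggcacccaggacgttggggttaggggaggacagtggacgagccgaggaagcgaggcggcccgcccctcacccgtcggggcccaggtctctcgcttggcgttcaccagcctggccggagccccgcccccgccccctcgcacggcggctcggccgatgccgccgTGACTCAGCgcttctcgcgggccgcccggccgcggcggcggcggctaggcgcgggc
Tkt: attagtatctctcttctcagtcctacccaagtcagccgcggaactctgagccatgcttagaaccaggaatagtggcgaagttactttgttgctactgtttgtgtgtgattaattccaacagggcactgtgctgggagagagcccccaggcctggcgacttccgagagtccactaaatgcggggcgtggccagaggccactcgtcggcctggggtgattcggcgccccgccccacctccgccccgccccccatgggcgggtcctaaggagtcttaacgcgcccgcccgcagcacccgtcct
In G6pdx the match is on the opposite strand, GCTCAGTCA as printed, and begins 57 bases before the start site. The Me1 match, TGACTCAGC, begins 6 bases before the start site and runs across it. The Pgd match, TGACATTGC, begins 3 bases after the start site of its second window, chr4:149166033-149166332. Tkt, Taldo1 and Idh1 had no match in their windows. A match describes the letters only, and nothing here measured binding.

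The total ran from 6829720 to 7696168 counts per library. Levels below are CPM, counts scaled to a library total of 1000000 after TMM scaling (factors 0.991 to 1.01), with 95% exact Poisson intervals that cover counting error only. A 3′ library gives about a read per captured transcript end, so CPM was not divided by length, and levels are compared between libraries and not between genes. Of 12 microglial markers all 12 had counts in all 5 libraries, summing to 3694 to 4156 CPM, but the homeostatic markers P2ry12 (0.666 to 1.60 CPM) and Tmem119 (3.06 to 7.45 CPM) were low. Marker sums for astrocytes, neurons, oligodendrocytes and fibroblasts stayed between 0.133 and 3.90 CPM, with Aqp4, Mog, Mobp and Lum at 0 in all 5 libraries. Of the endothelial markers, which summed to 32.3 to 45.5 CPM, only Kdr and Vwf reached a mean of 10 CPM. Small nucleolar RNA genes took between 0.0854% (control) and 0.108% (UPM) of counts without TZ, then 0.0995%, 0.0645% and 0.0458% with increasing dose. This share moved with the TZ dose, and its part in the results below was not tested.

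G6pdx, the entry enzyme of the pathway, stood at 66.2 CPM in the control (60.5 to 72.2) and 67.7 CPM in UPM (62.0 to 73.8). TZ 1.25 had 81.4 CPM (74.9 to 88.2), TZ 2.5 had 83.0 (76.4 to 90.1) and TZ 5 had 87.5 (80.6 to 94.7). The control and UPM lay together at the bottom, and the 3 TZ libraries together above them. UPM against control was 1.02-fold (0.903 to 1.16). Against UPM, TZ 1.25 was 1.20-fold (1.07 to 1.36), TZ 2.5 was 1.23-fold (1.09 to 1.38) and TZ 5 was 1.29-fold (1.15 to 1.46). Neighbours in the order of levels differed beyond counting error only between UPM and TZ 1.25.

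Pgd, which carries out the second NADPH-forming step, was 138 CPM in the control (130 to 147) and 159 CPM in UPM (150 to 168). TZ 1.25 had 155 CPM (146 to 164), and TZ 2.5 and TZ 5 had 174 each (164 to 184). The control was lowest and the 2 higher TZ doses were highest. UPM was 1.15-fold the control (1.06 to 1.25). TZ 1.25 was 0.974-fold UPM (0.897 to 1.06), while TZ 2.5 and TZ 5 were each 1.09-fold UPM, with intervals of 1.01 to 1.18. The low dose thus lay within counting error of UPM, and the other 2 doses just above it. Summed over G6pdx and Pgd, the level went from 204 CPM in the control to 227 in UPM and to 236, 257 and 261 with increasing dose.

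**Figure D1:**
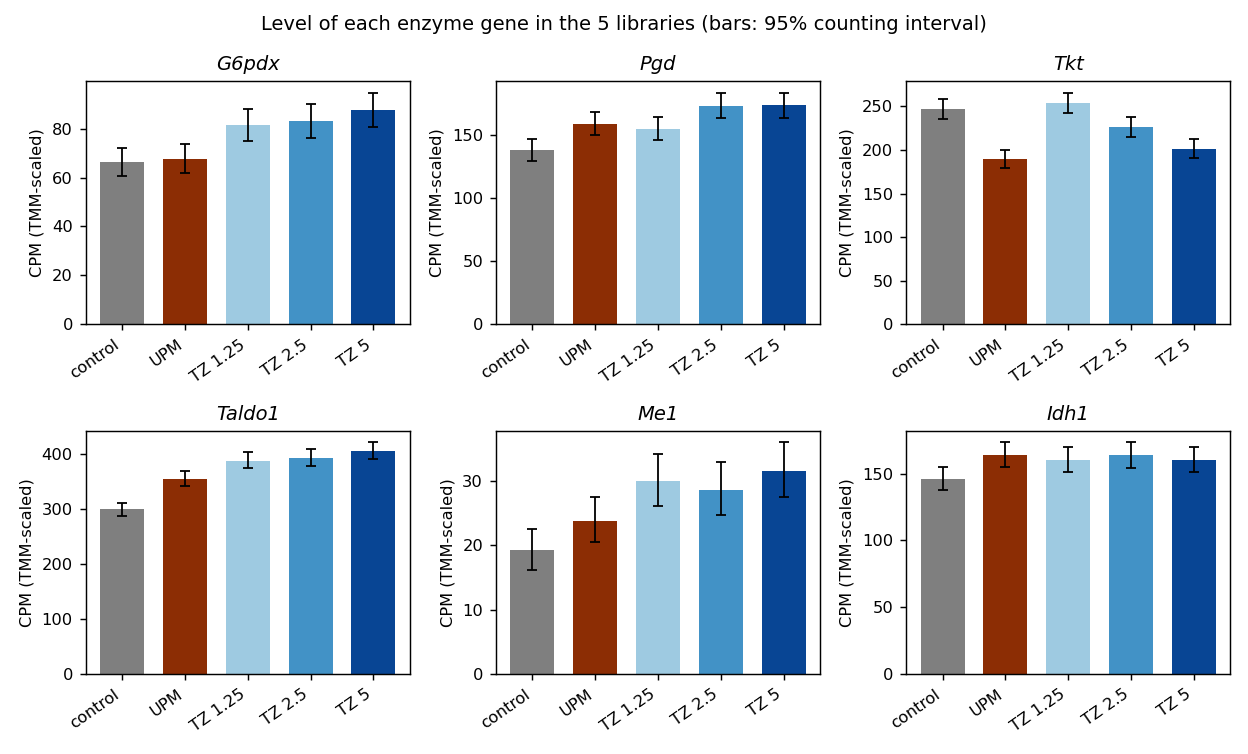
CPM of each of the 6 genes (vertical axes, from 0, a different scale in each panel) in the control, UPM and the 3 TZ libraries, with 95% counting intervals as error bars. The control bar is the lowest in 5 panels, and in the Tkt panel the lowest is UPM at 189 CPM.

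Tkt, the transketolase gene, followed another order. Its level was 247 CPM in the control (235 to 258) but 189 CPM in UPM (179.9 to 199.5). TZ 1.25 had 254 CPM (242 to 266), TZ 2.5 had 226 (215 to 238) and TZ 5 had 201 (191 to 212). UPM was 0.769-fold the control (0.717 to 0.824), and 5.69% of the 8282 genes measured in that pair had a fold as low or lower. TZ 1.25 was 1.34-fold UPM (1.25 to 1.44) and 1.03-fold the control (0.965 to 1.10). Each higher dose was lower than the one before it, at 1.19-fold UPM for TZ 2.5 (1.11 to 1.28) and 1.06-fold for TZ 5 (0.987 to 1.15). Counting error did not separate TZ 1.25 from the control at the top, or TZ 5 from UPM at the bottom.

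Taldo1, the transaldolase gene and partner of Tkt in the non-oxidative branch, was 299 CPM in the control (287 to 312) and 356 CPM in UPM (342 to 369). TZ 1.25 had 388 CPM (374 to 403), TZ 2.5 had 394 (379 to 409) and TZ 5 had 406 (391 to 422). The control lay below the rest and UPM next, each apart from its neighbours beyond counting error, while neighbouring doses were within counting error of each other. UPM was 1.19-fold the control (1.12 to 1.26), and against UPM the doses were 1.09-fold (1.04 to 1.15), 1.11-fold (1.05 to 1.17) and 1.14-fold (1.08 to 1.20). The branch thus held 1 gene lower and 1 higher in UPM. Summed, they came to 546 CPM in the control and 545 in UPM, a ratio of 0.999 (0.956 to 1.04), against 642, 620 and 608 CPM in the TZ libraries.

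Me1 had the fewest counts, 144 to 217 per library, and the widest intervals. It was 19.2 CPM in the control (16.2 to 22.6) and 23.8 CPM in UPM (20.5 to 27.5). TZ 1.25 had 29.9 CPM (26.1 to 34.2), TZ 2.5 had 28.6 (24.7 to 32.9) and TZ 5 had 31.5 (27.4 to 36.0). The order put the control lowest and the 3 doses highest, although no pair of neighbours differed beyond counting error. UPM was 1.24-fold the control (0.992 to 1.56), and the doses were 1.26-fold (1.03 to 1.54), 1.20-fold (0.978 to 1.48) and 1.32-fold (1.08 to 1.62) against UPM. From the control to TZ 5 the ratio was 1.64 (1.32 to 2.04), the widest range among the 6 genes. Idh1 had the narrowest range, 1.12-fold. It was 146 CPM in the control (138 to 155), and 164, 160, 164 and 160 in UPM, TZ 1.25, TZ 2.5 and TZ 5. The 4 exposed libraries could not be told apart by their counts, while UPM was 1.12-fold the control (1.03 to 1.22).

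UPM against control asks how the cells' mRNA differed after particle exposure. A gene was called when its fold reached 1.5 in either direction, its interval left out 1 and the pair's mean was at least 10 CPM, a rule of size and not a test. None of the 6 genes was called, against 3.08% of the genes measured in the pair, that is, with a mean of at least 10 CPM. Their median log2 fold was 0.19, against 0.00 over all measured genes. By counting error alone 3 genes were higher (Pgd, Taldo1, Idh1) and 1 was lower (Tkt), where 15.4% of measured genes were higher and 18.6% lower by the same rule. These shares include genes with far fewer counts and so wider intervals. Adding up all 6 genes gave 916 CPM in the control and 960 in UPM, 1.05-fold (1.01 to 1.08). That sum depended on Tkt, since without it the ratio was 1.15 (1.11 to 1.20).

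Each TZ dose against UPM asks what the drug changed in exposed cells. None of the 6 genes was called at any dose, against 2.22% of measured genes at TZ 1.25, 4.40% at TZ 2.5 and 6.57% at TZ 5. The median log2 fold of the 6 was 0.20, 0.20 and 0.16 in turn, against 0.00, −0.01 and 0.00 over all measured genes. By counting error alone 4 genes were higher than in UPM at each dose and 0 were lower. The corresponding shares of measured genes were 14.4%, 20.3% and 23.3% higher, and 15.5%, 20.7% and 21.7% lower. G6pdx and Taldo1 were among the 4 at every dose. The others were Tkt and Me1 at TZ 1.25, Pgd and Tkt at TZ 2.5, and Pgd and Me1 at TZ 5. Summed over all 6, the level was 1069, 1069 and 1061 CPM, or 1.11-fold (1.08 to 1.15), 1.11-fold (1.08 to 1.15) and 1.11-fold (1.07 to 1.14) against UPM. These comparisons share the UPM library, in which Tkt was lowest, and without Tkt the sums were 1.06-fold, 1.09-fold and 1.12-fold.

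**Figure D2:**
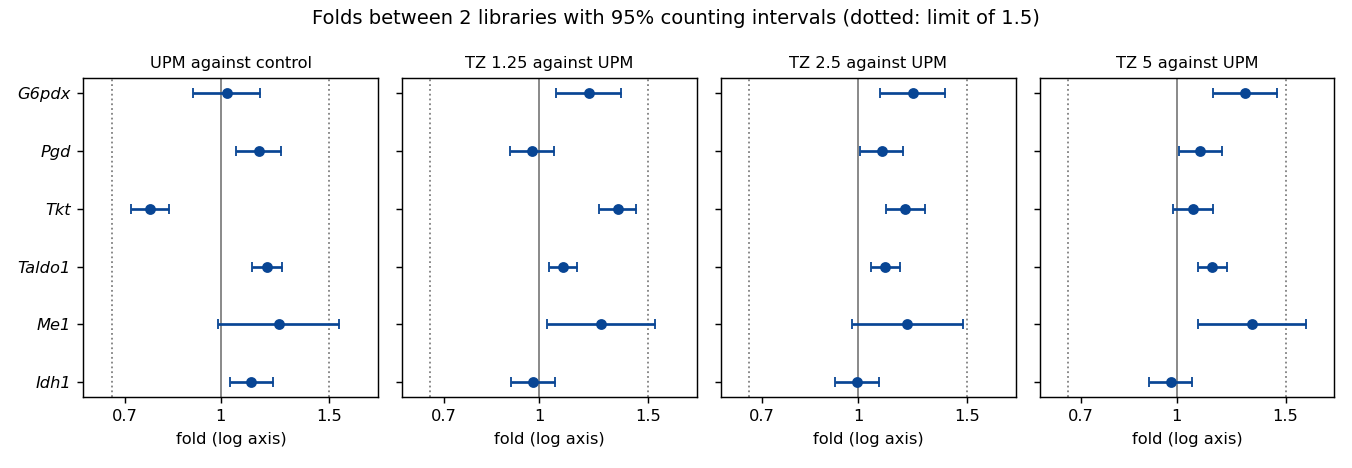
Fold of each gene (horizontal log axes) for UPM against control and for each TZ dose against UPM, 1 panel each, with 95% counting intervals as bars and dotted lines at the limit of 1.5. No point passes a dotted line, and Tkt lies to the left of 1 in the first panel (0.769) and to the right in the other 3.

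Set against the control, which had no particles, only Me1 was called. It was 1.56-fold at TZ 1.25 (1.26 to 1.94), where 2.38% of measured genes were called in either direction, and 1.64-fold at TZ 5, where 6.06% were. At TZ 2.5 it was 1.49-fold (1.20 to 1.86), just under the limit, and 0 of the 6 genes were called, against 3.62% of measured genes. In 5 of the 6 genes, all but Tkt, the control was the lowest of the 5 libraries, a pattern noticed after the values were seen. The same held for 20% (1667) of the 8341 genes with a mean of at least 10 CPM, and it rests on a single control library. Tkt was instead lowest in UPM, as were 23.3% of those genes, and highest in TZ 1.25, as were 14.2%.

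Dose was also used as a number in 1 fit of all 5 libraries, with a UPM term and a linear TZ term (edgeR quasi-likelihood test, Benjamini-Hochberg adjusted over 12381 genes, limit 0.05). The UPM term called 0 of the 6 genes, against 0.113% of all tested. Without adjustment 2 had an edgeR p under 0.05, as did 964 of the 12381 genes tested, and DESeq2 called 0 of the 6. Taldo1 had a log2 estimate of 0.29 (SE 0.10, unadjusted p = 0.00705, edgeR adjusted p = 0.445). Me1 had 0.42 (SE 0.20, unadjusted p = 0.0443, edgeR adjusted p = 0.631). Estimates for the others were 0.13 for G6pdx, 0.16 for Idh1, 0.19 for Pgd and −0.16 for Tkt.

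For the TZ dose term the same edgeR fit called 0 of the 6 genes too, against 5.44% of all tested. Without adjustment 1 of the 6 had an edgeR p under 0.05, as did 2175 of the 12381 genes tested. DESeq2 called 0 of the 6 (and gave Me1 no adjusted p). G6pdx had a slope of 0.064 in log2 per µg/mL (SE 0.029, unadjusted p = 0.0352, edgeR adjusted p = 0.239), which is 0.32 (SE 0.15) over the whole dose range. That slope was 0.027 without the UPM library (unadjusted p = 0.473, edgeR adjusted p = 0.870) and 0.116 without TZ 5. Me1 had a slope of 0.065 (SE 0.041) and an edgeR adjusted p of 0.452, with 0.024 without the UPM library and 0.103 without TZ 5. Slopes were 0.034 for Taldo1 (SE 0.022) and 0.032 for Pgd (SE 0.024). Without the UPM library they were 0.017 and 0.037, and without TZ 5 they were 0.057 and 0.049. For Idh1 and Tkt they were −0.0046 (SE 0.024) and −0.0075 (SE 0.027). A straight line describes Tkt poorly by its own values, since it was highest at the lowest dose. Without the TZ 1.25 library its slope was 0.018, without TZ 5 it was 0.100, and without UPM it was −0.087. The fit has 2 residual degrees of freedom, all of them from the exposed libraries, whose spread was taken to hold for the control too. Its p-values rest mostly on variance pooled over genes (median prior degrees of freedom 48.7). They thus do not measure each gene's own spread.

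The remaining enzymes of the pathway, taken as lists beside the 6, did not all share a direction. In the oxidative list, with 2 genes measured, the median log2 fold was 0.04 in UPM against control. Against UPM it was −0.25, −0.08 and −0.10 with increasing TZ dose. For the non-oxidative branch and ribose phosphate use these medians were −0.02, then −0.14, −0.11 and −0.13. The 6 had 0.19, then 0.20, 0.20 and 0.16. Pgls, the lactonase between G6pdx and Pgd, was 253 CPM in the control, 218 in UPM and, with increasing dose, 243, 209 and 177. It thus ran opposite to its neighbours at the top dose, at 0.811-fold UPM (0.753 to 0.874), and its dose slope was −0.075 (SE 0.025, edgeR adjusted p = 0.0610). H6pd, the related enzyme of the endoplasmic reticulum, was called lower at TZ 1.25 against UPM, at 0.635-fold (0.484 to 0.829), where 2.22% of measured genes were called. Its values were 16.1, 19.9, 12.6, 18.5 and 21.3 CPM in the same order of libraries, so the low library was TZ 1.25 alone. Of 10 genes of the non-oxidative branch and of ribose phosphate use, 6 were measured and 0 were called in any of the 4 comparisons or in either term of the edgeR fit (0 at an unadjusted p under 0.05, and 0 by DESeq2). Of all measured genes 2.22% to 6.57% were called in these comparisons. In the fit 0.113% of all tested were called by the UPM term and 5.44% by the TZ dose term. For lists this short, 0 called is near those shares. Among them Prps2, which makes phosphoribosyl pyrophosphate from ribose phosphate, was 1.43-fold in UPM against control (1.15 to 1.77). Prpsap2, which encodes a protein associated with that enzyme, was 1.33-fold (1.00 to 1.78). Against UPM, Prps2 was 0.765-fold (0.618 to 0.947), 0.698-fold (0.558 to 0.871) and 0.790-fold (0.637 to 0.979) with increasing TZ dose. Prpsap2 was 0.791-fold (0.593 to 1.05), 0.730-fold (0.541 to 0.980) and 0.715-fold (0.529 to 0.962).

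Near relatives of the 6 genes bear on how reads were assigned. G6pd2, Tktl1 and Tktl2 were listed at 0 in all 5 libraries and Me3 had at most 0.653 CPM. The mitochondrial isoenzyme genes did not share the order of the cytosolic ones. Me2 was 54.7 CPM in the control, 55.5 in UPM and 44.8, 41.3 and 45.3 with TZ, or 0.815-fold at TZ 5 against UPM (0.702 to 0.945), where Me1 was 1.32-fold. Idh2 was 184, 177, 159, 184 and 175 CPM, with TZ 2.5 and the control within counting error of each other at the top. Nadk2, the mitochondrial NAD kinase that supplies NADP, was 18.1, 14.2, 15.4, 15.0 and 12.6 CPM. Of the 13 genes listed as other NADPH producers, which include these, Nadk and the folate enzymes, 9 were measured and 0 were called in the 4 comparisons. The NAD kinases supply NADP and do not make NADPH, so the list is wider than its name. The shares of all measured genes called there were 2.22% to 6.57%, so 0 of 9 is near them. In the edgeR fit 0 of 11 passed either term (1 at an unadjusted p under 0.05 for UPM and 0 for dose, and 0 by DESeq2). Of all genes tested 0.113% passed the UPM term and 5.44% the TZ dose term. Among the other NADPH producers the picture was as follows. The median log2 fold of the 9 measured genes of that list in UPM against control was −0.05, where that of the 6 was 0.19. Against UPM it was −0.01, −0.18 and −0.10 with increasing TZ dose, where the 6 had 0.20, 0.20 and 0.16.

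Enzymes that spend NADPH were examined in 3 lists. The phagocyte oxidase list had 8 of 10 genes measured and 0 called in any of the 4 comparisons, against 2.22% to 6.57% of all measured genes. The median log2 fold of this list was 0.12 in UPM against control. Its catalytic subunit gene Cybb was 551, 598, 567, 521 and 522 CPM from the control to TZ 5. Cybc1, a chaperone of the oxidase, was 30.2, 32.9, 35.6, 32.2 and 37.0 CPM. In the edgeR fit 0 of 9 passed either term (0 at an unadjusted p under 0.05, and 0 by DESeq2), against 0.113% (UPM) and 5.44% (TZ dose) of all genes tested.

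Among 12 tested NADPH-using reductases the UPM term called 1 higher and 0 lower, against 0.113% of all genes tested, with a median estimate of 0.20 against 0.00 over all genes. This was Blvrb, biliverdin reductase B, at 84.4 CPM in the control and 115 to 127 in the exposed libraries (log2 estimate 0.56, SE 0.12, edgeR adjusted p = 0.0432). It was not called by DESeq2, with total counts, without a dose term, or without the UPM or TZ 1.25 library (adjusted p 0.00198 to 0.696 over 10 alternatives). The TZ dose term called 1 higher and 0 lower of the 12, against 5.44% of all genes tested. This was Cbr1, carbonyl reductase, at 26.1, 22.7, 21.6, 28.6 and 34.4 CPM (slope 0.13, SE 0.041, edgeR adjusted p = 0.0403), and also called higher at TZ 5 against UPM at 1.51-fold (1.24 to 1.85). Its slope was not called when any 1 of the 4 exposed libraries was left out, and DESeq2 gave it no adjusted p (adjusted p 0.0337 to 0.581 over the alternatives). Gsr, glutathione reductase, was 48.9, 51.1, 59.7, 65.1 and 62.9 CPM, and its slope of 0.054 (SE 0.033) had an edgeR adjusted p of 0.418.

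In the list of NADPH-using biosynthesis 7 of 8 genes were measured, with 1 called in UPM against control (3.08% of measured genes) and 1 by the TZ dose term (5.44% of all tested). Nos2, which makes nitric oxide from arginine, was called lower in UPM at 0.659-fold the control (0.499 to 0.868), with 17.8 CPM in the control and 9.57 to 12.2 in the exposed libraries. Fasn, fatty acid synthase and a main consumer of NADPH, fell with TZ dose, from 248 CPM in UPM to 209, 199 and 179 (slope −0.089, SE 0.023, edgeR adjusted p = 0.0137). The control stood at 258 CPM. Fasn was not called without the UPM or the TZ 5 library (adjusted p 0.00371 to 0.447 over 9 alternatives). So Fasn and G6pdx had slopes of opposite sign, −0.089 and 0.064, of which only that of Fasn passed the test. The difference between them was not tested.

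Regulators of these genes were measured as mRNA, which need not follow their activity. Nfe2l2, the gene of NRF2, was 348, 349.7, 331, 310.3 and 307 CPM from the control to TZ 5, and its repressor Keap1 was 151, 144, 149, 153 and 131. The UPM term called 0 of 12 regulators (edgeR, 0 at an unadjusted p under 0.05, and 0 by DESeq2), against 0.113% of all genes tested. The TZ dose term called 1 higher and 1 lower of the 12, against 5.44% of all genes tested. Mafg, a small MAF partner of NRF2, was 299.9, 281, 294, 351 and 363 CPM (slope 0.079, SE 0.023, edgeR adjusted p = 0.0259) and was not called without the UPM, TZ 1.25 or TZ 5 library (adjusted p 0.00601 to 0.319). Trp53, the gene of the tumour suppressor p53, was 56.4, 68.5, 59.5, 48.6 and 46.0 CPM (slope −0.12, SE 0.033, edgeR adjusted p = 0.0225) and was not called by DESeq2 or without the UPM or TZ 5 library (adjusted p 0.00798 to 0.374).

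**Figure D3:**
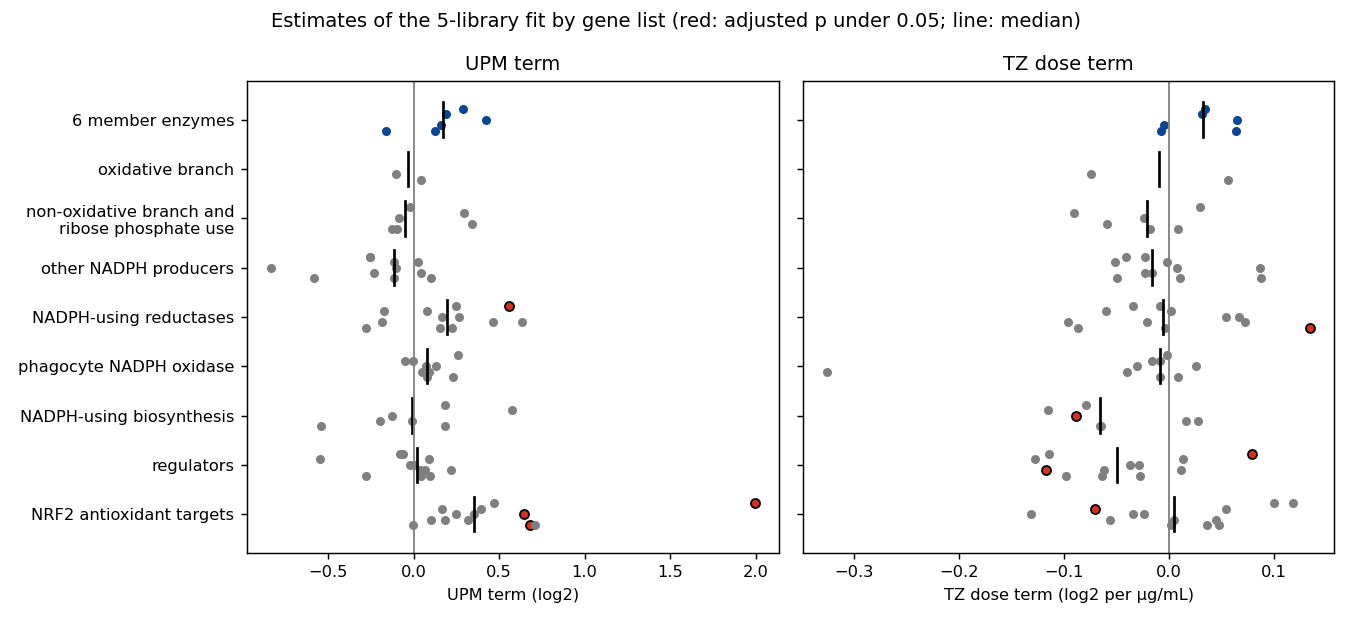
Estimates of the 5-library edgeR fit for the 6 genes (blue) and for the genes of 8 lists (grey), with the UPM term in log2 on the left and the TZ dose term in log2 per µg/mL on the right. Red points had an adjusted p under 0.05 and short lines are medians. The 6 genes have medians of 0.17 and 0.03, and none is red.

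The antioxidant targets of NRF2 offer a scale for these differences, although the list was chosen with its response to UPM already known. Of 14 genes 13 were measured in UPM against control and 3 were called higher (Gsta3, Gstm1 and Cat) and 0 lower, against 3.08% of measured genes called. Their median log2 fold was 0.39, where the 6 enzyme genes had 0.19. With TZ against UPM the order was the other way. The list had medians of 0.06, 0.07 and 0.07 with increasing dose, where the 6 had 0.20, 0.20 and 0.16. Gsta3, a glutathione transferase, went from 5.59 CPM in the control to 21.0 in UPM and 33.8 in TZ 5, the latter called higher than UPM at 1.61-fold (1.31 to 1.98). Gstm1, of the same family, was 30.1 CPM in the control and 44.3 to 58.9 in the exposed libraries. Cat, catalase, was 51.4 CPM in the control and 79.4 to 97.2 in the exposed libraries. Gclm, the modifier subunit of the enzyme that starts glutathione synthesis, was 62.2 CPM in the control and 85.4 to 102 in the exposed libraries. The UPM term of the edgeR fit called Gsta3, Cat and Gclm higher, against 0.113% of all genes tested (adjusted p = 9.36e-06, 0.0272 and 0.0314), but Cat was lost without the UPM library, Gclm without TZ 2.5, and both with DESeq2, with total counts and without a dose term. Slc7a11, the cystine carrier, was at 11.4, 15.0, 18.7, 18.5 and 22.2 CPM. Prdx1, a peroxidase, had another order, at 873, 1172, 1080, 980.0 and 918 CPM, and fell with dose (slope −0.070, SE 0.021, edgeR adjusted p = 0.0317). That call was lost with total counts and without the UPM, TZ 1.25 or TZ 5 library (adjusted p 0.00734 to 0.435). Osgin1, an oxidative stress induced growth inhibitor, was called lower in TZ 5 at 0.619-fold UPM (0.434 to 0.875). With Gsta3 that made 1 of 13 measured genes higher and 1 lower, where 6.57% of all measured genes were called in either direction. The TZ dose term called 0 of 13 higher and 1 lower (Prdx1), against 5.44% of all genes tested.

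Likeness of pattern was measured as the root mean square difference between log2 CPM profiles over the 5 libraries, each centred on its mean, among 3853 genes with a mean of at least 50 CPM. The nearest gene to G6pdx was Gsr (0.042), followed by the Fc receptor gene Fcgr3 (0.045). Nearest to Pgd were Gmnn (0.026) and Phf20l1 (0.027), to Taldo1 Emp1 (0.029) and Alox5ap (0.031), to Tkt Mrps25 (0.027) and Raver1 (0.041), and to Idh1 Soat1 (0.010) and Lonp1 (0.012). Me1 was under that level, and among 6569 genes with at least 20 CPM its nearest were Ms4a14 (0.050) and Ccpg1 (0.072). Among the 6 themselves, Taldo1 was nearer to Me1 than all but 27 of 6568 genes, and nearer to G6pdx than all but 96. Tkt stood apart, with 50.4% to 95.4% of genes nearer to it than each of the other 5. These are descriptions over 5 libraries that share their totals and scaling, with no test.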

How the data were processed

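The deposited values are raw counts of reads per gene symbol, 1 file per library, with single-end reads of 75 bp from oligo-dT primed QuantSeq 3′ libraries per the labels' protocols. STAR, edgeR and build GRCm39 are named in the submitters' processing notes with no version or role. No source names the counter or annotation, or says how strand was treated, so overlapping genes on opposite strands cannot be told apart.

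All 40879 rows carried a symbol. Scaling used TMM factors over all genes. Folds between 2 libraries have 95% exact conditional binomial (Clopper-Pearson) intervals. Reads carry no molecular identifiers, so intervals cover counting error only. Where a gene is at 0 the exact Poisson upper limit is 0.482 to 0.535 CPM, depending on the library. The fit across libraries used edgeR 4.0.16 (limma 3.58.1, R 4.3.3) with filterByExpr, a UPM term and TZ dose in µg/mL. DESeq2 1.42.0 was an alternative. Each SE was derived from the estimate and its F statistic. The intervals and the dose term of the edgeR fit were tested on simulated data. Promoter windows came from RefSeq on GRCm38.p6 and were matched by symbol, while the counts carry no coordinates.

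The 6 genes and all lists were chosen with earlier results of these data known. Of 80 listed genes all were found, Akr1b1 under its older symbol. Named were all 6 genes with their near paralogs, list members called in a comparison or otherwise among those of widest range, and the 2 genes nearest in pattern. A gene that this rule names is not reported here. Cybb, Gsr, Nfe2l2, Keap1 and Slc7a11 were added for their role after their values were seen. Pgls was also named outside this rule, since H6pd of its list was called. Alternatives were other scalings, fold limits of 1.25 and 2, CPM minimums of 1 and 30, DESeq2, no filter, dose as rank, no dose term, and each exposed library left out in turn.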

Additional observations from a re-analysis of the deposited data

How the results depend on the processing

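Under DESeq2 size factors or total counts all 84 folds of the 6 genes stayed within their counting intervals, and 1 changed sides of 1 (Idh1 in TZ 2.5 against UPM, from 0.997 to 1.02 with total counts). Tkt stayed lowest in UPM and the other 5 genes lowest in the control under each scaling. With a fold limit of 1.25 the genes called became 1 in UPM against control, 2 in TZ 1.25 and 2 in TZ 5 against UPM. Against control they became 2, 4 and 4 in TZ 1.25, TZ 2.5 and TZ 5. No share of all measured genes at the limit of 1.25 is given here, so these counts cannot be set against one. At a limit of 2 or a minimum of 30 CPM, 0 genes were called in TZ 1.25 or TZ 5 against control. Me1 could not be called there, with folds of 1.56 and 1.64 and pair means of 24.6 and 25.3 CPM. With total counts Me1 was also called in TZ 2.5 against control (1 gene). The summed level in UPM against control was 0.981-fold without Taldo1, the most abundant gene, and 1.15-fold without Tkt. In TZ 1.25 against UPM it was 1.06-fold without Tkt, an alternative chosen after seeing the data. In the fit none of the 6 genes passed the threshold in any alternative, the lowest adjusted p being 0.136 (G6pdx, TZ dose as rank). Sizes moved more: the UPM term ran from 0.071 to 0.271 for G6pdx, and the dose slope from 0.024 to 0.113 for Me1. The range of slopes includes dose as rank, whose slope is per dose step and not per µg/mL. Of 114 alternative estimates 110 kept their sign, and the others were those of Tkt, whose UPM term was 0.13 without the UPM library, and whose dose slope was 0.0066 with dose as rank, 0.018 without TZ 1.25 and 0.100 without TZ 5. The cause was not tested. Over all genes, the UPM term called 10 higher and 4 lower. These counts were 5 and 1 with DESeq2, 4 and 2 with total counts, 21 and 13 with no filter, 19 and 7 with dose as rank, 1 and 0 with no dose term, 16 and 8 without the UPM library, 15 and 13 without TZ 1.25, and 35 and 45 without TZ 5. The dose term called 365 higher and 309 lower, against 161 and 134 with DESeq2, 115 and 94 without the UPM library, and 215 and 155 without TZ 5. With a minimum of 20 CPM the nearest genes became Slc35a2 for G6pdx (0.018), Cspp1 for Pgd (0.0095) and Il1rl1 for Taldo1 (0.023). Depth limits Me1 most, since at 144 to 217 counts its interval spans ratios well beyond those of the other 5 genes. No paired analysis was possible because each group has 1 library.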
